A study of Mus musculus with 3 samples.

Results

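Colony-stimulating factor 1 (Csf1), its receptor Csf1r, the granulocyte-macrophage colony-stimulating factor receptor chains Csf2ra, Csf2rb and Csf2rb2, the receptor tyrosine kinase Flt3 and its ligand Flt3l were examined in CD45+ cells of the inflamed sciatic nerve. The 7 genes were taken by name from the 32285 gene rows of a single-cell expression table, and all 7 had at least 1 unique molecular identifier (UMI, a count of distinct RNA molecules) in each of the 3 libraries. All libraries came from female NOD.AireGW/+ mice with neuropathy. These mice carry 1 copy of a partial loss-of-function allele of Aire, the regulator that lets the thymus display tissue antigens, on the autoimmune-prone NOD background, and develop peripheral nerve autoimmunity spontaneously. Libraries 1 and 2 held 1 mouse each, and library 3 pooled 2 mice. Each standard deviation (SD) given here is therefore between at most 3 libraries from 4 mice, whose age is not given in the sources used here. No mice without neuropathy and no wild-type mice were analysed here, so every comparison below is between cell types within the diseased nerve.

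As background, CSF1 binds the tyrosine kinase receptor CSF1R and keeps monocytes and macrophages alive. FLT3 ligand acts through FLT3 on the precursors of dendritic cells and on the dendritic cells themselves, and supports their number in tissues. GM-CSF binds the alpha chain encoded by Csf2ra, which pairs with the common beta chain encoded by Csf2rb. Mice also have Csf2rb2, a neighbouring copy of Csf2rb whose product serves the interleukin-3 receptor alone.

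In the mm10 (GRCm38) annotation, Csf1 lay at chr3:107741048-107760469, Flt3 at chr5:147330741-147400489, Flt3l at chr7:45129788-45136432, Csf2rb2 at chr15:78282507-78305721 and Csf2ra at chr19:61223957-61228429, all on the minus strand. Csf2rb lay on the plus strand at chr15:78325752-78353847, beside Csf2rb2. The 250 bases upstream of the RefSeq start (GRCm38.p6, minus strand) are shown for 3 genes whose levels separated dendritic cells from each other or from other myeloid cells: Csf2ra (chr19:61228419-61228668), Csf2rb2 (chr15:78305722-78305971) and Flt3 (chr5:147400490-147400739). Capitals mark GAGGAA on either strand, a core of the type bound by the myeloid factor PU.1.

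Csf2ra: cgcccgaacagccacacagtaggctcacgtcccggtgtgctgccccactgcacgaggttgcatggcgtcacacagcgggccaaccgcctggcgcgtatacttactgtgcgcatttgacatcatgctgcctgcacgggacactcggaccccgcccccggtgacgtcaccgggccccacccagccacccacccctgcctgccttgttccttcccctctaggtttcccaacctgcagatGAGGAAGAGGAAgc
Csf2rb2: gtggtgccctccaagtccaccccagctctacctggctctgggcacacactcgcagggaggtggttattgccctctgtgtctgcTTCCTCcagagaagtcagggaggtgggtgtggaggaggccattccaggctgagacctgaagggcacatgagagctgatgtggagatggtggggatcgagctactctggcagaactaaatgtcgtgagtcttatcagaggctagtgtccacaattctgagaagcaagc
Flt3: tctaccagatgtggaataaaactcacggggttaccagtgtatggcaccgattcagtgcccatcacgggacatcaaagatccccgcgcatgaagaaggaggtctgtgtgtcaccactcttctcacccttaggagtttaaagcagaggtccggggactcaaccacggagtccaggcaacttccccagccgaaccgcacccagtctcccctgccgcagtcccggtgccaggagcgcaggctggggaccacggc

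The Csf2ra window held 2 adjoining copies of GAGGAA at positions -14 and -8 from the start, the Csf2rb2 window held 1 copy at -167 on the opposite strand, and the windows of Flt3, Csf1 and Flt3l held no copy. The GENCODE start of Csf2ra, at 61228429, lies inside its RefSeq window. By that start the copy at -8 is within the gene and the copy at -14 spans the start. GAGGAA occurred on either strand in 23.3% of the 32851 promoters of this length. The C/EBP core TTGCNNAA, found in 9.56% of promoters on either strand, was in none of the 5 windows. The GC box GGGCGG, found in 32.7% of promoters, occurred 2 times upstream of Csf1 and 1 time each upstream of Csf2ra and Flt3l. A match describes these letters only.

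Cells were assigned to types by counts of marker genes, none of which was one of the 7 genes, and cells that met the markers of more than 1 lineage were left out as possible doublets. The libraries held 3926, 8311 and 1533 cells with median depths of 3956, 4632.5 and 1726 UMIs after filtering. Of the cells kept, 57.5%, 56.8% and 36.2% received 1 of the 11 types, and 6.99%, 14.6% and 0.652% met more than 1 lineage. Cell barcodes shared between libraries numbered 35, 7 and 14 for the 3 pairs. Macrophages were unevenly spread, with 14 cells in library 1, 1906 in library 2 and 4 in library 3, so library 2 decides most macrophage values. Macrophage-gated cells carried monocyte markers too: the 7 macrophage markers summed to 5790, 22800 and 10100 CPM (UMIs of a gene per 1000000 UMIs of that cell type in that library), and the 7 monocyte markers to 11400, 16200 and 4200 CPM. The monocyte marker Lyz2 alone made up nearly all of the latter sum in library 2, at 16000 CPM. It made up a smaller part in libraries 1 and 3, at 7000 and 2880 CPM. In monocytes the macrophage markers summed to 1430, 1350 and 942 CPM. UMIs were summed per type and library, and a sum of under 10 cells was left out of every test and every mean, which left macrophages, conventional dendritic cells type 1 (cDC1) and plasmacytoid dendritic cells (pDC) with libraries 1 and 2, and conventional dendritic cells type 2 (cDC2) and mature dendritic cells with library 2 alone.

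Receptors and ligands fell on opposite sides of the myeloid and lymphoid cell types. Macrophages, monocytes, cDC1, cDC2 and mature dendritic cells together were compared with NK, B, CD4, Foxp3 and CD8 T cells by edgeR's quasi-likelihood test on summed counts with the library as a block, with Benjamini-Hochberg adjustment over all 10318 genes tested. In that fit 50.8% of all genes differed, and the 7 genes all differed as well: the 5 receptor genes were higher in myeloid cells and both ligand genes were higher in lymphoid cells. The log2 difference was 6.52 ± 0.478 (SE) for Csf1r (adjusted p = 5.603e-12), 6.15 ± 0.225 for Csf2rb (3.199e-18), 5.65 ± 0.335 for Csf2rb2 (6.702e-14), 4.96 ± 0.326 for Flt3 (8.224e-12) and 4.83 ± 0.168 for Csf2ra (1.91e-19). It was -3.22 ± 0.585 for Csf1 (4.022e-05) and -2.22 ± 0.179 for Flt3l (1.512e-11). The median gene stood at -0.13 in this comparison, which is the level these differences are read against. The summed samples of the myeloid and lymphoid sides did not overlap for Csf2ra, Csf2rb, Csf2rb2 and Flt3l and overlapped for Csf1r, Flt3 and Csf1. The Flt3 call was lost without library 2 (adjusted p = 1), which held most conventional dendritic cells. That fit had no cDC2 or mature dendritic cell sum, so its myeloid side was macrophages, monocytes and cDC1 only.

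Among the typed CD45+ cells, Csf1, the ligand of Csf1r, was highest in T cells; cells of the nerve outside the CD45+ sort were not measured. Conventional CD4 T cells (Foxp3-negative) held 54, 34.6 and 21.1 CPM of Csf1 in libraries 1, 2 and 3, with a mean of 36.6 ± 16.5 (SD, n = 3). Foxp3 T cells, the regulatory subset, held 71.3, 15.2 and 14.1 CPM, and CD8 T cells held 39.9, 17 and 15.6 CPM. Library 1 was the highest in CD4 and CD8 T cells, and in Foxp3 cells it was above library 2. The Foxp3 value of library 3 was 1 UMI in 23 cells, where 3 counts stand for 42.4 CPM. Its Poisson interval of 0.358 to 78.7 CPM included the library 1 level, so it could not be ranked. The ranges of the 3 types overlapped with or without that value. B cells held 11.4, 7.48 and 0 CPM, below the T cell types in libraries 1 and 2, while 3 counts stand for 23.8 CPM in library 3. NK cells held 7.9, 1.41 and 0 CPM, below the 3 T cell types in libraries 1 and 2; in library 3 the 0 could not be told from the T cell levels, since 3 counts stand for 19.7 CPM there.

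Myeloid cells held little or no Csf1. Over all libraries, 17 UMIs of Csf1 were found in 1924 macrophages (1.15 CPM), 7 in 217 monocytes and 3 in 158 cDC1. None was found in 147 pDC or in 81 cDC2, which allows up to 3.13 and 4.53 CPM at 3 counts.

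In the test, 15% of all genes differed between NK and T cells and Csf1 was lower in NK cells by a log2 difference of -3.01 ± 0.505 (edgeR adjusted p = 5.912e-05). CD8 and CD4 T cells did not differ detectably in Csf1 (-0.58 ± 0.265, edgeR adjusted p = 0.2261), with 8.55% of genes called and none of the 7 among them by edgeR or DESeq2 (1 at an unadjusted p under 0.05). Foxp3 and conventional CD4 T cells did not differ detectably either (-0.22 ± 0.302, edgeR adjusted p = 0.863), with 3.26% of genes called and again none of the 7 by either tool (2 at an unadjusted p under 0.05). This difference changed sign to 0.28 without library 2, where Foxp3 cells stood below CD4 cells. After each cell was thinned to 1000 UMIs, a Csf1 UMI was seen in 4.83%, 3.46% and 0.741% of CD4 cells and in 3.62%, 1.77% and 1.83% of CD8 cells, against 0.84%, 0.746% and 0% of NK cells. Thinning left out 45, 15 and 13 CD4 cells, 42, 8 and 9 CD8 cells and 14, 1 and 2 NK cells that were shallower; without it the shares averaged 7.3% in CD4, 5.97% in CD8 and 1.25% in NK cells.

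**Figure D1:**
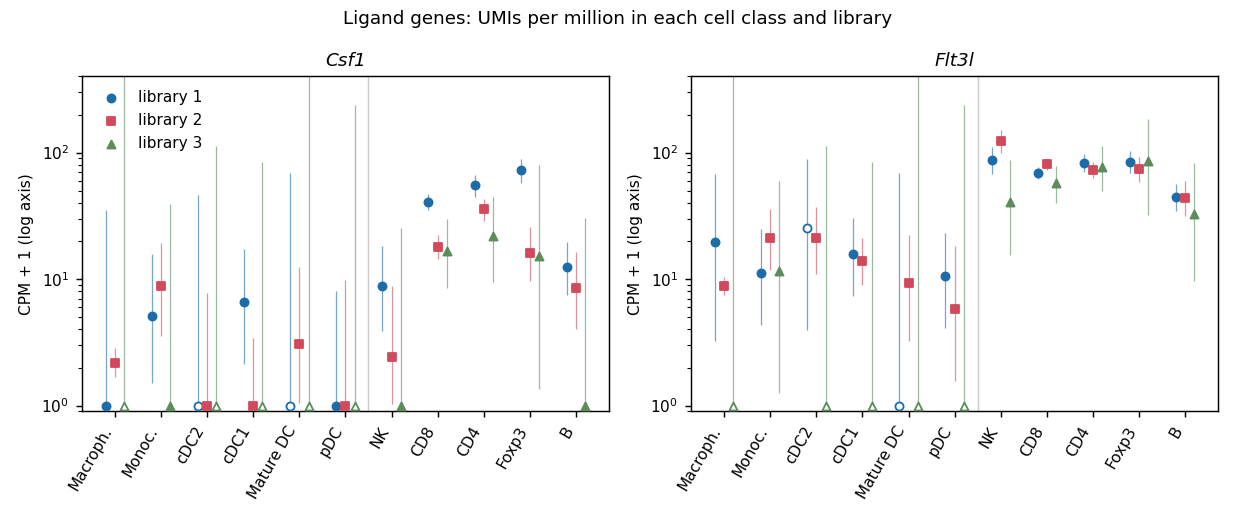
Levels of the ligand genes Csf1 and Flt3l in each cell type, as CPM + 1 on a log axis. Each point is 1 library, filled for sums of at least 10 cells and open for fewer, with the exact Poisson 95% interval of its count; Csf1 is highest in the 3 T cell types (15.6 to 39.9 CPM in CD8 cells), and Flt3l is in NK cells as well (39.5 to 123 CPM).

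Within CD8 T cells, Csf1 followed Cxcr6, which encodes a chemokine receptor of tissue-resident T cells. CD8 cells with at least 1 Cxcr6 UMI held 54.3, 22.8 and 33.4 CPM of Csf1 in libraries 1, 2 and 3. Those without held 5.39, 6.02 and 2.69 CPM. The groups did not overlap, and the order held in each of the 3 libraries. A Csf1 UMI was present in 12.9%, 7.72% and 9.86% of the Cxcr6-positive cells and in 2.56%, 1.6% and 0.641% of the others. The log2 difference was 2.69 ± 0.323 (edgeR adjusted p = 5.096e-07), in a comparison that called 12.1% of 8303 genes. Cxcr6-positive cells were deeper, with median depths of 4492, 3959 and 2680 UMIs against 4271, 2991 and 2111, and with every cell thinned to 1000 UMIs the difference was 2.47 (adjusted p = 4.32e-07). The call was lost without the library block (2.73, adjusted p = 0.07326), in a fit that called 3 genes in all; the range over the alternatives was 9.071e-16 to 0.07326.

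CD8 cells with a UMI of Havcr2, which encodes the inhibitory receptor TIM-3, also held more Csf1. Their levels were 84.5, 26.1 and 37.3 CPM against 15.7, 14.6 and 12.5 CPM in CD8 cells without. The difference was 1.74 ± 0.263 (edgeR adjusted p = 4.659e-06, with 7.06% of 8001 genes called), and it fell to 0.88 without library 1 (adjusted p = 0.4665; range over the alternatives 8.025e-10 to 0.4665). Library 3 contributed 15 such cells and 3 Csf1 UMIs. Havcr2-positive cells were deeper as well, at 5419, 6027 and 3579 UMIs against 4339, 3246 and 2160, and with cells thinned to 1000 UMIs Csf1 did not pass the count filter of the test. The thinned levels were 279, 76.9 and 0 CPM in cells with Havcr2 and 40.7, 13 and 19.2 CPM in those without; the 0 came from the 10 such cells left in library 3.

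In conventional CD4 T cells the same gene marked higher Csf1, with a smaller difference. Cxcr6-positive CD4 cells held 77.3, 56.5 and 58.2 CPM and the others 35.4, 25.5 and 16.8 CPM, without overlap of these values. The library 3 values were 2 UMIs in 17 cells and 5 UMIs in 131 cells. Their Poisson intervals of 7.05 to 210 and 5.46 to 39.2 CPM overlapped. The log2 difference was 1.10 ± 0.248 (edgeR adjusted p = 0.0005101, with 4.82% of 7173 genes called), and the call was lost without library 1 (0.148) and without library 2 (0.3297), within a range over the alternatives of 0.0001253 to 0.5087. Cells were also divided by Il21, the cytokine of T cells that help B cells. Il21-positive CD4 cells held 62.1, 49.3 and 74.6 CPM against 52.4, 30.7 and 18.8 CPM, with 7 cells and 1 Csf1 UMI behind the value of library 3. In libraries 1 and 2 the difference of 0.51 ± 0.286 did not pass the test (edgeR adjusted p = 0.4997, with 3.05% of 8123 genes called). These 4 comparisons were chosen after Csf1 had been seen in T cells. Flt3l passed the test in none of them. Its largest difference was -0.59 ± 0.258 in CD4 cells divided by Il21 (edgeR adjusted p = 0.3045).

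**Figure D2:**
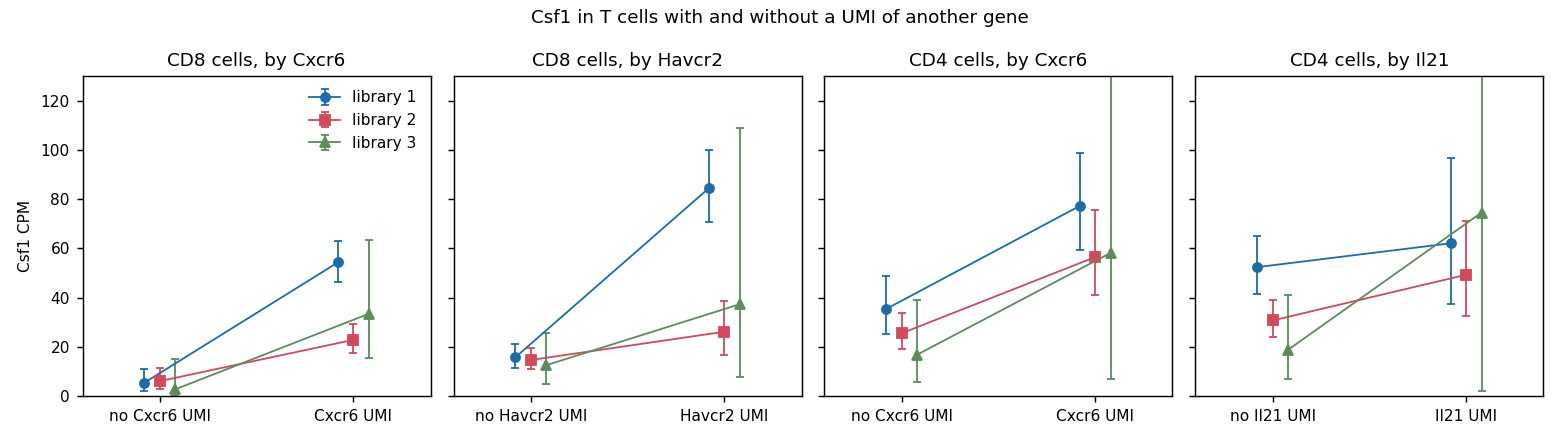
Csf1 in CPM in T cells with and without a UMI of Cxcr6, Havcr2 or Il21; lines join the same library and vertical bars are exact Poisson 95% intervals of the counts. CD8 cells with Cxcr6 lie at 22.8 to 54.3 CPM and those without at 2.69 to 6.02 CPM; intervals of library 3 in CD4 cells run past the top of the axis at 130 CPM.

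Flt3l, the ligand of Flt3, was present in all lymphoid types. NK cells held 86.8, 123 and 39.5 CPM (83.1 ± 41.9, SD, n = 3). Foxp3 cells held 83.7, 73.2 and 84.8 CPM (80.6 ± 6.4), CD4 cells 82.3, 72.2 and 75.3 CPM (76.6 ± 5.17) and CD8 cells 68.3, 79.9 and 56.1 CPM (68.1 ± 11.9). The 4 ranges overlapped, and the NK values were the most widely spread. NK and T cells did not differ detectably in Flt3l (0.35 ± 0.182, edgeR adjusted p = 0.2306). B cells stood below the T cell types in every library, at 43.6, 42.7 and 31.7 CPM.

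Among myeloid types Flt3l was lower. Monocytes held 10.2, 20.3 and 10.5 CPM, macrophages 18.5 and 7.87 CPM in libraries 1 and 2, cDC1 14.9 and 13 CPM, and pDC 9.57 and 4.76 CPM. After thinning to 1000 UMIs, 11.8%, 12.7% and 7.5% of NK cells and 6.3%, 6.12% and 8.15% of CD4 cells held a Flt3l UMI, against 0.318% of macrophages on average. Without thinning these shares averaged 28.6% in NK, 19.9% in CD4 and 6.32% in macrophages.

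**Figure D3:**
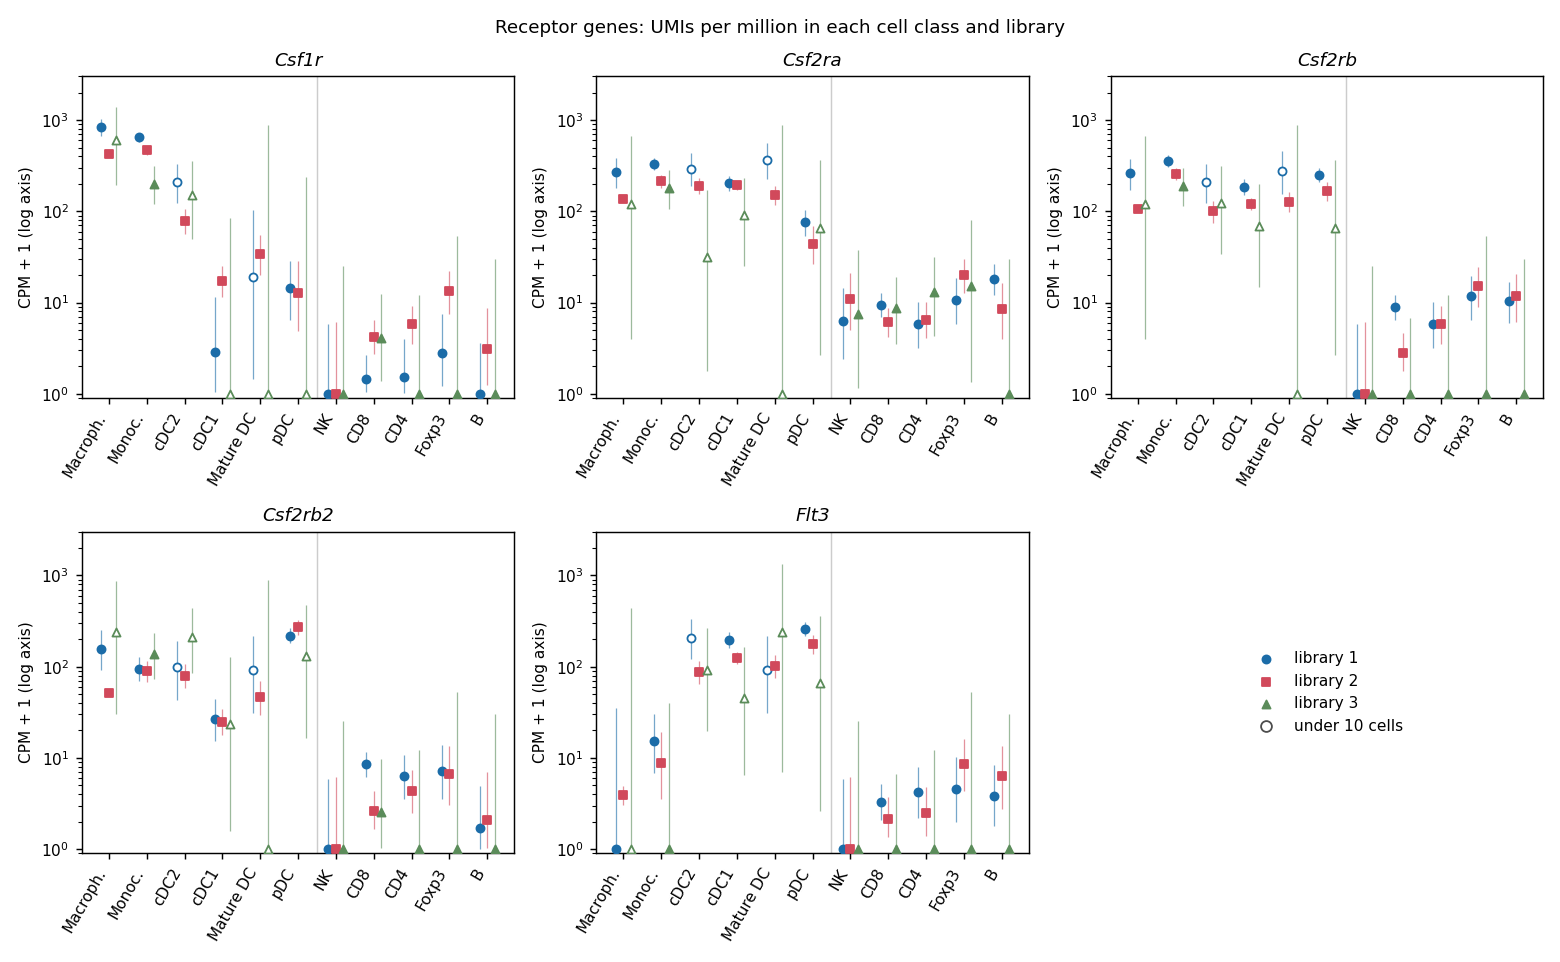
Levels of the 5 receptor genes in each cell type, as CPM + 1 on a log axis, with 1 point per library (filled, at least 10 cells; open, fewer) and exact Poisson 95% intervals of the counts. Csf1r is highest in macrophages (428 to 833 CPM) and monocytes (199 to 643 CPM), and Flt3 in pDC, cDC1, cDC2 and mature dendritic cells, while NK cells are at 0 for all but Csf2ra.

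Csf1r, the CSF1 receptor (ENSMUSG00000024621), was highest in macrophages and monocytes. Macrophages held 833 and 428 CPM in libraries 1 and 2 (630 ± 286, SD, n = 2), and the 4 macrophages of library 3 held 600 CPM. Monocytes held 643, 465 and 199 CPM (436 ± 223, n = 3). The ranges of both types overlapped. The log2 difference between macrophages and monocytes was 0.09 ± 0.346 (edgeR adjusted p = 0.9467), in a comparison that called 5.75% of genes. Its sign was not stable, with -0.32 when a sum needed at least 20 cells, which removes the macrophages of library 1.

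Next came cDC2 at 76.7 CPM and mature dendritic cells at 33 CPM in library 2, then pDC at 13.4 and 11.9 CPM and cDC1 at 1.86 and 16.2 CPM. Conventional dendritic cells were below macrophages and monocytes by -4.32 ± 0.373 on the log2 scale (edgeR adjusted p = 1.052e-09, with 20.5% of genes called). Within conventional dendritic cells, cDC1 were below cDC2 by -2.56 ± 0.663 (edgeR adjusted p = 0.02462, with 3.6% of genes called). This call rested on library 2 for cDC2 and was lost with DESeq2 (0.6091), without the library block (0.2363) and without library 3 (0.09106), in a range over the alternatives from 1.223e-06 to 0.6091.

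In lymphoid cells Csf1r was low. NK cells held none in 310 cells and 1621697 UMIs, which allows up to 1.85 CPM and 0.968% of cells with a UMI. In library 2, where macrophages were most abundant, CD4, Foxp3 and CD8 cells stood at 1.12%, 2.9% and 0.752% of the macrophage Csf1r level. The complement gene C1qa, a macrophage marker, stood in the same cells at 0.594%, 0.392% and 0.257% of its own macrophage level. The part of free RNA in these lymphoid values was not tested. After thinning to 1000 UMIs, Csf1r was seen in 50% and 36.1% of macrophages and in 60.7%, 30.3% and 4.35% of monocytes, against 0%, 0.133% and 0% of CD4 cells; shares without thinning averaged 91% and 70.7% in macrophages and monocytes. Dividing cells did not stand apart: the 130 macrophages of library 2 with a UMI of the proliferation gene Mki67 held 419 CPM of Csf1r and the other 1776 held 429 CPM.

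Among typed cells, Flt3 was highest in the 4 kinds of dendritic cells and low in all others. It reached 260 and 176 CPM in pDC (218 ± 59.4, SD, n = 2), 197 and 124 CPM in cDC1 (160 ± 51.6, n = 2), 101 CPM in mature dendritic cells and 85.8 CPM in cDC2, the last pair from library 2. The pDC and cDC1 ranges overlapped. In sums of under 10 cells, library 1 had 207 CPM in cDC2, above its cDC1 value, and 91.7 CPM in mature dendritic cells, and library 3 had 64.6 CPM in pDC, 44.8 CPM in cDC1 and 90.8 CPM in cDC2. Macrophages held 0 and 2.88 CPM and monocytes 14.3, 7.79 and 0 CPM, and NK cells held none.

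Conventional dendritic cells exceeded macrophages and monocytes in Flt3 by 4.21 ± 0.279 on the log2 scale (edgeR adjusted p = 1.053e-10). Inside the dendritic lineage no comparison of Flt3 passed the test. The difference was 0.67 ± 0.328 between cDC1 and cDC2 (edgeR adjusted p = 0.3919), 0.09 ± 0.319 between mature dendritic cells and cDC1 with cDC2 (0.9762, with 8.78% of genes called and none of the 7 by edgeR, by DESeq2 or at an unadjusted p under 0.05) and 0.54 ± 0.237 between pDC and cDC1 with cDC2 (0.113, with 22.8% of genes called). The last passed when no TMM scaling was used (0.77, adjusted p = 0.02145). With thinning to 1000 UMIs, 22.2% and 10.1% of pDC and 15.2% and 10.1% of cDC1 in libraries 1 and 2 held a Flt3 UMI, against 0% and 0.758% of monocytes. Shares without thinning averaged 65.8% in pDC and 83.5% in cDC1.

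Csf2ra, the ligand-binding chain of the GM-CSF receptor, was present in all myeloid types and lowest in pDC. Monocytes held 332, 214 and 178 CPM (241 ± 80.6, SD, n = 3), macrophages 268 and 136 CPM (202 ± 93.3, n = 2), cDC1 201 and 191 CPM (196 ± 7.07, n = 2), and cDC2 and mature dendritic cells 188 and 149 CPM. Conventional dendritic cells did not differ detectably from macrophages and monocytes (-0.16 ± 0.203, edgeR adjusted p = 0.6787). In pDC the level was 74.6 and 42.8 CPM, below every sum of at least 10 cells of the types above, and the log2 difference from cDC1 and cDC2 was -2.03 ± 0.299 (edgeR adjusted p = 6.952e-06). Lymphoid types lay between 4.81 and 19 CPM except for B cells, at 17.2, 7.48 and 0 CPM. Among cells thinned to 1000 UMIs, 12.1% and 21.8% of cDC1 held a Csf2ra UMI in libraries 1 and 2, compared with 0% and 4.49% of pDC and 0.84% and 0.746% of NK cells. Without thinning the averages were 86.8% in cDC1 and 30.6% in pDC.

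Csf2rb, the common beta chain, and its copy Csf2rb2 differed from each other in where they were highest. Csf2rb was 358, 256 and 188 CPM in monocytes (267 ± 85.6, SD, n = 3), 249 and 164 CPM in pDC (206 ± 60.1, n = 2), 259 and 106 CPM in macrophages and 184 and 120 CPM in cDC1. The monocyte range began just above the top of the cDC1 range, and every other pair of these ranges overlapped. Among sums of at least 10 cells, Csf2rb2 was highest in pDC, at 218 and 269 CPM (244 ± 36.1, n = 2), above every library of monocytes (94.1, 88.9 and 136 CPM) and of macrophages (157 and 50.3 CPM). It was lowest among the myeloid types in cDC1, at 26 and 24 CPM. Among thinned cells, 20.4% and 33.7% of pDC held a Csf2rb2 UMI in libraries 1 and 2, against 0% and 2.52% of cDC1, while Csf2rb was seen in 20.4% and 13.5% of pDC and 21.2% and 7.56% of cDC1. Without thinning, Csf2rb2 averaged 68.5% in pDC and 28.2% in cDC1. Neither gene was seen in any NK cell.

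Between pDC and conventional dendritic cells, Csf2rb2 was higher in pDC by 2.11 ± 0.297 on the log2 scale (edgeR adjusted p = 5.302e-06), while Csf2rb did not differ detectably (0.37 ± 0.265, adjusted p = 0.3705). This comparison was added after the cells had been counted. The interleukin-3 alpha chain gene Il3ra stood in pDC at 32.5 and 57.1 CPM and in cDC1 at 26 and 26.6 CPM. Neither edgeR nor DESeq2 called Il3ra between pDC and conventional dendritic cells. cDC1 were below cDC2 in Csf2rb2 by -1.72 ± 0.462 (edgeR adjusted p = 0.03258), a call lost with DESeq2 (0.2133), without the library block (0.2433), without library 3 (0.07154) and with thinned cells (0.7239), over a range from 0.001264 to 0.7239.

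Macrophages were below monocytes in Csf2rb by -0.98 ± 0.262 on the log2 scale (edgeR adjusted p = 0.02293), the only call among the 7 genes in that comparison. It was lost with DESeq2 (0.3622), without the library block (0.7201) and without library 2 (0.7848), over a range from 0.002656 to 0.7848. Conventional dendritic cells were below macrophages and monocytes in Csf2rb by -0.81 ± 0.219 (edgeR adjusted p = 0.008218), over a range from 0.0005393 to 0.229. This difference ran from -0.86 to -0.69 as each library was left out. The call was lost with DESeq2, and also without library 2, where only cDC1 of library 1 remained on the dendritic side. In Csf2rb2 the difference was -0.88 ± 0.272 (edgeR adjusted p = 0.02078), over a range from 0.00016 to 0.2462. That call was lost with DESeq2 as well. NK cells held no UMI of either beta chain, and T cells held little: Csf2rb was 7.94, 1.84 and 0 CPM in CD8 cells. The Csf2rb difference between NK and T cells passed the test (edgeR adjusted p = 0.02675) but was lost with DESeq2 and without library 1 (0.278), over a range from 0.006798 to 0.7855. In library 1 few T cells carried it: 35 Csf2rb UMIs lay in 7 of 816 CD8 cells and 9 in 2 of 521 CD4 cells.

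The beta chain genes share part of their sequence. Of the 90-base windows of the Csf2rb transcript, 8.19% occur in Csf2rb2 as well, and 14.1% do over its first 500 bases, so the counts of this pair are uncertain where reads fall in such stretches. Other genes overlap too: Gm26597, antisense to the start of Flt3, had 0, 6 and 0 UMIs per library, and Hmgxb3, on the opposite strand at the end of Csf1r, had 314, 538 and 40.

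**Figure D4:**
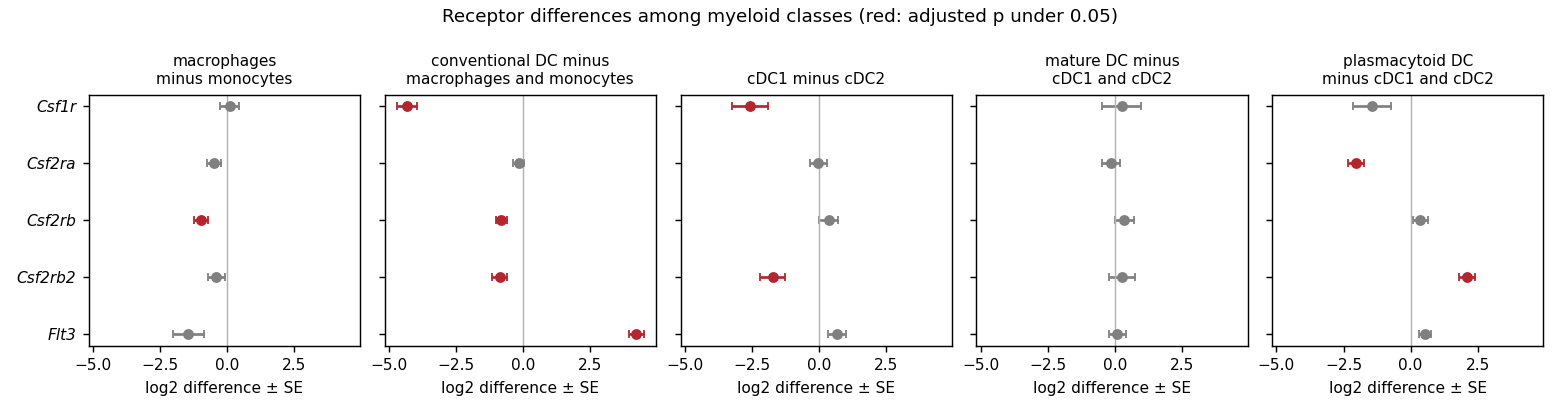
Log2 differences of the 5 receptor genes in the comparisons among myeloid cell types, with bars of 1 SE from the edgeR fit and red points where the adjusted p is under 0.05. Csf1r (-4.32) and Flt3 (4.21) move in opposite directions between conventional dendritic cells and macrophages with monocytes, and Csf2rb2 (2.11) and Csf2ra (-2.03) do so between pDC and conventional dendritic cells.

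The other ligands of these receptor families were too low to test. Summed over all typed cells, Il34, the second ligand of CSF1R, had 6 UMIs, Csf2, which encodes GM-CSF, had 28, Kitl had 28, Csf3 had 8, Il5 had 1 and Il3 had 0. Of the Csf2 UMIs, 24 were in CD4 T cells of library 2 (8.84 CPM), while CD4 T cells of libraries 1 and 3 held none. Among 5 other receptors 3 could be tested. Kit, the stem cell factor receptor, was 169 and 91 CPM in cDC1, 60.3 CPM in cDC2 and 53.7 CPM in mature dendritic cells, and it was at 0 in both pDC sums, at least 31.6-fold lower than in conventional dendritic cells against 3 counts over the group. Csf3r, the G-CSF receptor, was 55.5 and 52.2 CPM in macrophages and 57.3, 42.1 and 31.4 CPM in monocytes.

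Of 36 further genes of these pathways (ligands, receptors, 14 proximal signalling genes and 11 transcription factors), 28 were tested. Between myeloid and lymphoid cells, where 50.8% of all genes were called, 21 were higher and 4 were lower, with a list median of 1.26 on the log2 scale against -0.13 over all genes. The 4 were Stat5b, the cytokine-induced inhibitors Cish and Socs2, and the lymphocyte factor Irf4. Between macrophages and monocytes (5.75% of all genes called) none of the 28 passed by edgeR or DESeq2, and 5 had an unadjusted p under 0.05. Conventional dendritic cells (20.5% of all genes called) had 3 genes higher than macrophages and monocytes, namely Kit, the kinase gene Jak2 and Zbtb46, a factor of conventional dendritic cells, and 9 lower, among them Csf3r and Il3ra. In cDC1 against cDC2 (3.6% of all genes called), Irf8, Id2 and Batf3, the factors of cDC1, were higher and 5 genes were lower, with Tcf4 at -1.51 on the log2 scale.

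Mature dendritic cells had 8 of 28 genes higher and none lower (8.78% of all genes called), with a list median of 0.17 against -0.05 over all genes: Jak2, Stat5a, Stat5b, Stat3, Socs2, Grb2, Irf8 and Id2. Socs2, a feedback inhibitor, stood at 310 CPM in mature dendritic cells and at a mean of 0.65 CPM in conventional dendritic cells, where 3 UMIs were found. The mature dendritic cells of this comparison came from library 2 alone, while the conventional ones included cDC1 of library 1. In pDC 6 of 28 genes were higher and 10 were lower than in conventional dendritic cells (22.8% of all genes called), with log2 differences of 3.70 for Tcf4, the pDC factor, and 2.25 for Irf8. CD8 cells had 5 genes lower than CD4 cells, Jak2, Stat5b, Cish, Socs2 and Irf4, and none higher (8.55% of all genes called). Foxp3 cells had Lyn and Spi1 higher and Irf4 lower than CD4 cells by edgeR, none of which DESeq2 called (3.26% of all genes called by edgeR). NK cells had 9 higher and 6 lower than T cells (15% of all genes called).

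The genes with the most similar profile to each of the 7 were found by Pearson's r of log2 CPM over the 26 summed samples among 8290 genes, as a description over samples that share libraries and cell types. Csf1r was most like Chil1 (0.979), Lrp1 (0.978) and C3 (0.975). Flt3 was most like Mycl (0.94), Fgfr1 (0.922) and Tnni2 (0.92), and Csf2ra most like Ltbr (0.945), Gpx1 (0.939) and Ptpro (0.934). Csf2rb had Gm14548 (0.963), Ppfia4 (0.961) and Rasa4 (0.96), and Csf2rb2 had Cd300a (0.961), Ifi207 (0.952) and Cds1 (0.952). Flt3l was closest to Cd2 (0.923), Rab37 (0.917) and Shisa5 (0.91). Csf1 had the loosest matches, with Trbv13-3 (0.846), Mturn (0.832) and Ubash3a (0.832), which are T cell receptor and signalling genes in the first and last case.

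The typed cells do not account for all molecules of these genes. Cells outside the 11 types held 37.2%, 53.4% and 37.9% of all Csf1 UMIs in libraries 1, 2 and 3, 53.1%, 34.7% and 35.4% of Csf1r, 45.6%, 47.7% and 61.1% of Flt3 and 44%, 53% and 63.9% of Flt3l. Of all Csf1r UMIs of library 2, macrophages held 61.1% and monocytes 2.91%; in library 1 these shares were 9.71% and 33.9%, and in library 3 they were 10.4% and 39.6%. Of Csf1, CD8 cells held 28.8%, 16.1% and 34.5%, and CD4 cells 16.5%, 20.4% and 24.1%. These shares depend on how many cells of a type were typed as well as on their RNA, whereas the CPM values above are relative to all UMIs of the type.

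**Figure D5:**
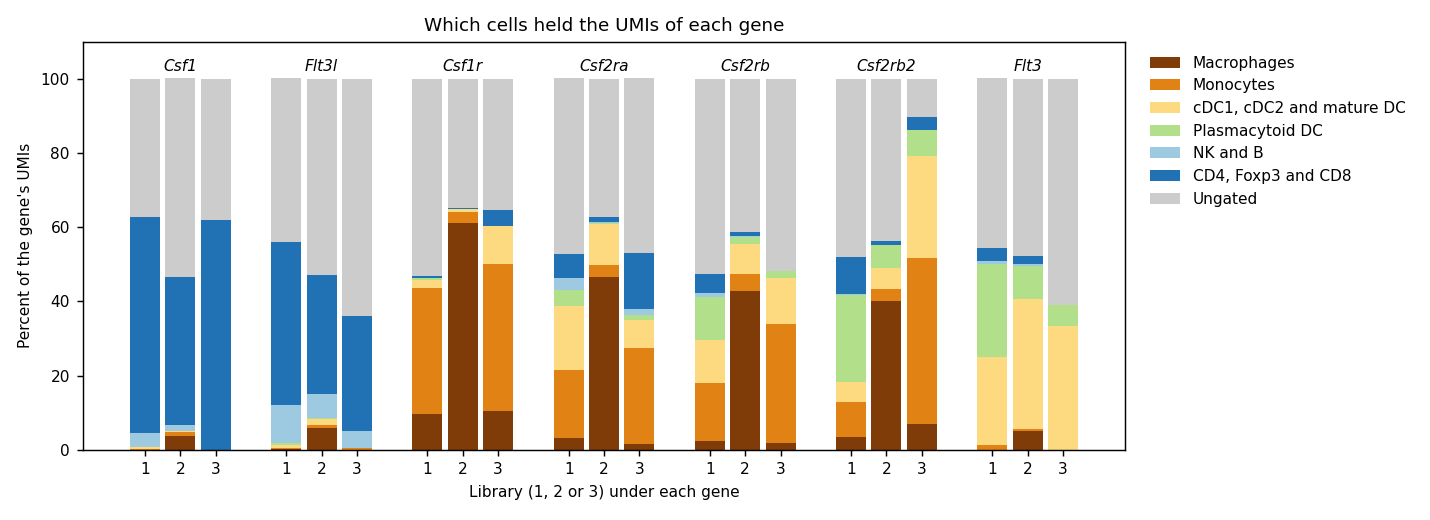
Share in percent of each gene's UMIs that came from each cell type, for each gene and library as stacked bars that reach 100, with the cells outside the 11 types as their own segment. Macrophages hold 61.1% of the Csf1r UMIs of library 2, and monocytes hold 33.9% and 39.6% in libraries 1 and 3.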

How the data were processed

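Sciatic nerve CD45+ cells were sorted after cardiac perfusion and collagenase digestion, and 5′ single-cell libraries were prepared on the 10x Genomics platform. The deposited values were raw UMI counts per gene and cell, which the authors made with Cell Ranger 5.0.1 for library 1 and 6.1.2 for libraries 2 and 3 on mm10, as the table headers give it; Seurat is named in the submitters' processing notes. Library 1 came without a gene list and took the row order of the others: its gene totals correlated with those of libraries 2 and 3 at a Spearman rho of 0.9501 and 0.9287, against 0.3619 and 0.3211 when shifted by 1 row. No column of per-sample values was left unmapped (0).

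The limits of the study were applied to the cells (at least 300 UMIs, at most 5000 detected genes and at most 20% of UMIs from mitochondria), and 3848, 8256 and 1533 cells remained from 22983991, 55120460 and 3399733 UMIs. A cell was typed when it held at least 1 UMI of enough markers of a list: 4 of 7 for macrophages and for monocytes, 4 of 6 for pDC, 3 of 5 for cDC1, 2 of 6 for cDC2, 3 of 7 for mature dendritic cells and for NK cells, 3 of 6 for B and for T cells, T cells then being divided by Cd4, Cd8a with Cd8b1, and Foxp3. Conventional and mature dendritic cells also needed H2-Aa, H2-Ab1 and Cd74. Cells meeting more than 1 lineage were left out, and no other doublet caller was run. All myeloid types counted as 1 lineage. A cell meeting several myeloid lists took the first of pDC, mature dendritic cells, cDC1, macrophages, monocytes and cDC2. A cell meeting both the macrophage and the monocyte list was thus typed as a macrophage. Cells meeting both the pDC and the macrophage list stayed untyped, and cDC2 could hold at most 1 pDC marker. The numbers of markers were set on marker counts alone. The 7 genes, the pathway list of 36 genes and the comparisons were chosen with earlier results of these data known. Values are named for all 7 genes, for pathway genes that passed a test or were highest of their list in a cell type, and for the 3 genes most like each of the 7 with a mean of at least 20 CPM in some type.

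UMIs were summed per library and type, and sums of at least 10 cells (26 sums) were tested with edgeR 4.0.16 in R 4.3.3 (TMM, filterByExpr, quasi-likelihood F test, library as a block, Benjamini-Hochberg adjustment, threshold 0.05). A type present in 1 library was assumed to vary like the others. All types share the libraries, which is the pairing that the block uses. The comparison of pDC and the 4 divisions of T cells were added after the cells had been counted. P-values are set against the spread left between sums once the cell group and the library are fitted. The block takes out shifts shared by a whole library, so p-values do not measure the spread between the 3 libraries themselves. Levels are plain CPM, Poisson and binomial intervals are exact at 95%, and intervals and upper limits from 0 counts (3 counts) cover counting error only. To compare shares of cells, each cell was thinned to 1000 UMIs and shallower cells were left out. Alternatives were DESeq2 1.42.0, no count filter, no block, each library left out, at least 5 or 20 cells, 1 more marker per type, a stricter rule on second lineages, thinned cells, a 10% mitochondrial limit and, added later, no TMM scaling. The tests were also run on simulated counts, which were drawn without a library effect. Promoter windows came from RefSeq (GRCm38.p6), where 5 of the 7 genes had an entry, and gene positions from GENCODE on GRCm38. Csf1r and Csf2rb had no entry.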

Additional observations from a re-analysis of the deposited data

Results flagged for a closer look

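Cells that met no marker list were part of no comparison, yet they held all 7 genes above the level that 3 counts would give. Summed over the 1609 such cells and 3274923 UMIs, the level was 88.6 CPM for Csf2rb, 82.1 CPM for Csf1r, 80.9 CPM for Csf2ra, 50.1 CPM for Flt3l, 46.7 CPM for Csf2rb2, 42.7 CPM for Flt3 and 17.4 CPM for Csf1, where 3 counts correspond to 0.916 CPM. The libraries differed in what these cells held. Csf1 stood at 55.2 CPM in the 552 cells of library 1, 2.72 CPM in the 655 cells of library 2 and 5.47 CPM in the 402 cells of library 3, while Csf1r stood at 40.6, 120 and 21.9 CPM. No control samples were analysed here to set these values against, and groups of 3 libraries were too small for the test of single outlying samples.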

How the results depend on the processing

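Of 370 alternative values for the 31 differences printed above, 328 kept their direction and side of the threshold, 33 lost the threshold, 1 gained it and 8 changed sign; the cause was not tested. Every sign change was in a difference that did not pass the test. For Csf1r between macrophages and monocytes the value became -0.32 with at least 20 cells in a sum and -0.093 with 1 more marker per type. For Flt3 it became -0.24 between cDC1 and cDC2 with thinned cells, and -0.28 with at least 5 cells, -0.080 with thinned cells and -0.063 without TMM scaling between mature and other dendritic cells. For Csf1 between Foxp3 and CD4 cells it became 0.39 with thinned cells and ran from -1.22 to 0.28 as each library was left out.

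Without the replicate block (the library), Csf1 kept its direction but lost its calls in T cells divided by Cxcr6 or Havcr2, at 2.73 for CD8 with Cxcr6, 1.75 for CD8 with Havcr2 and 1.19 for CD4 with Cxcr6. The last was also lost with DESeq2 (1.12) and thinned cells (0.89). Leaving out each library gave 0.88 to 2.23 for CD8 with Havcr2 and 1.10 to 1.13 for CD4 with Cxcr6.

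Counts of called genes moved by more than 1.5 times in 27 of 114 alternatives, always downward except for 506 against 336 between Foxp3 and CD4 cells without a count filter. Without the block 87 genes were called between macrophages and monocytes in place of 593, 87 between cDC1 and cDC2 in place of 371, 280 between CD8 and CD4 cells in place of 882 and 33 between Foxp3 and CD4 cells; without library 2, 23 remained between macrophages and monocytes. Thinned cells gave 1956 in place of 5246 between myeloid and lymphoid types. Without TMM scaling the median gene moved to -0.47 in that comparison. Shares of cells with a UMI moved in 14 of 40 alternatives, all with thinning to 500 or 2000 UMIs. Leaving out library 2 gave no value for cDC2, mature dendritic cells and pDC against conventional dendritic cells, and Csf1 in CD8 cells divided by Havcr2 gave no fitted difference with thinned cells. Without library 2 the myeloid side held macrophages, monocytes and cDC1, and the conventional dendritic side held cDC1 of library 1 alone. These values are therefore for other sets of types than the main ones. Library 3 had 555 typed cells and entered no sum of macrophages or dendritic cells.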

Other observations

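T cells assigned to neither the CD4 nor the CD8 types also held the ligand genes. In 774, 1605 and 564 such cells Flt3l stood at 89.5, 82.6 and 86.5 CPM and Csf1 at 31.4, 15.7 and 4.85 CPM, whereas Csf1r stood at 0.754, 8.81 and 1.62 CPM. Cells that met more than 1 lineage, 269, 1203 and 10 per library, held both sides: over all libraries they carried 188 CPM of Csf1r, 84.1 CPM of Csf2ra, 22.2 CPM of Flt3, 30.6 CPM of Flt3l and 10.3 CPM of Csf1.

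Libraries differed in how many Csf1 UMIs a positive T cell held. Of the Cxcr6-positive CD8 cells, 70 of 543 held 169 Csf1 UMIs in library 1, with up to 10 in 1 cell. In library 2, 41 of 531 held 65, with up to 4 in 1 cell, and in library 3, 7 of 71 held 9, with up to 2 in 1 cell.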
